A study of Mus musculus with 16 samples.

Results

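This account is about the effect of odor exposure on the enrichment of transcripts in GFP+ over GFP- cells of the mouse olfactory mucosa. For each gene, the log2 level in GFP- cells was subtracted from that in GFP+ cells of the same pool of mice, and the 4 differences of odor-exposed pools were set against the 4 of pools given filtered air. All 16 samples of the series entered this comparison, as 8 pools with 1 GFP+ and 1 GFP- sample each. It was made for all 19505 genes with 1 platform symbol, of which 1091 were odorant receptor genes (7 of them annotated as pseudogenes) and 18414 were other genes.

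All mice, controls included, carried S100a5-tauGFP, a green fluorescent reporter under control of the S100a5 gene. The 24 animals, of both sexes and 7 to 12 weeks old, were housed singly in chambers of clean air for 40 hours at 3.1 L/min. From hour 26 the odor arm received indole/ionone and the vehicle arm filtered air, in pulses of 10 seconds every 20 min. The labels do not say whether indole and ionone were mixed, and their effects cannot be told apart. Mucosa of 3 mice at a time was pooled, dissociated and sorted, so a value belongs to a pool and not to a mouse, and GFP+ means reporter fluorescence above a gate, not a response to the odor. Each sample gave 1 Clariom S array from 50 to 100 ng of total RNA.

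As background, each mature olfactory sensory neuron expresses a single odorant receptor gene out of the large Olfr family, and that receptor sets which odorants excite the cell. Binding of an odorant activates the G protein Golf and adenylyl cyclase 3, and cyclic AMP opens a cyclic nucleotide-gated channel. S100a5 is transcribed in neurons that have been active, so a neuron that often responds tends to carry more reporter. In such a reporter assay, the receptor of a responding neuron is looked for as an mRNA with a larger GFP+ over GFP- difference after odor than after vehicle.

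The arrays had median log2 levels of 6.05 to 6.39. The GFP- sample of odor pool 3 stood apart from the others, at 90.4 on the second principal component, where the next highest sample lay at 27.6. Y-linked transcripts (mean of Eif2s3y, Kdm5d and Uty) were at log2 levels of 3.12 to 3.86 in odor pool 3 and vehicle pool 3 and of 9.20 to 10.29 elsewhere. The median level of 23 antigenomic background probes was 5.63 to 6.05 per array, and a group mean under the average of these medians in that group is called under background here. Omp, the marker of mature sensory neurons, lay at 18.11 to 18.51 in all 16 samples. Its SD in GFP+ samples was 0.01 after odor and 0.02 after vehicle, and whether its signal was near saturation was not tested. Pools were separate animals, and p-values measure the spread between pools.

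No gene passed the test of the enrichment difference over all genes. With limma and Benjamini-Hochberg adjustment over 19505 genes, 0 were called at an adjusted p under 0.05 (0% of genes tested), and also 0 with ordinary variances per gene. At an unadjusted p under 0.05, 358 genes were higher after odor (1.84% of all genes) and 296 were lower (1.52%). A lone gene would have needed an unadjusted p of 2.56e-06, which at the median standard error of receptors corresponds to a log2 difference of 3.06 and at that of other genes to one of 2.11. The lowest p of all genes was that of the receptor Olfr76 (adjusted p = 0.0860), and the next that of Olfr851 (adjusted p = 0.817). For every other gene the adjusted p was 0.947 or higher, so no verb of change is used for them below.

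Odorant receptors spread more widely than other genes. Their differences ran from -1.60 to 2.38, with a median of 0.07 and the middle 95% between -0.71 and 0.97. Those of other genes ran from -1.29 to 1.40, with a median of 0.00 and the middle 95% between -0.51 and 0.53. Receptors also varied more among pools of the same arm, with a median SD of 0.59 on the log2 scale against 0.34 for other genes. A difference over 1 was seen in 24 receptors and one under -1 in 6, against 12 and 9 of the far more numerous other genes.

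At an unadjusted p under 0.05, 56 receptors were higher after odor, which is 5.13% of receptors where 1.84% of all genes and 1.64% of other genes met this rule, and 19 were lower (1.74% against 1.52% and 1.5%). With genes kept that reached a level of 7 in some group, the shares of receptors were 5.08% higher and 1.66% lower, and those of other genes 0.762% and 0.987%. Receptor enrichments of same-numbered pools deviated together, and with the pool number as a replicate block 85 receptors were higher (7.79% against 2.64% of all genes) and 38 lower (3.48% against 2.01%). The number of receptors that met the rule depended on the estimate of variance. When the variance prior was estimated apart for receptors and for other genes, 31 receptors were higher and 7 lower, and with ordinary variances 30 and 8. More receptors were thus higher than lower in these fits too, while fewer met the rule. In either direction, 662 and 687 of all 19505 genes met the rule in these fits, against 654 in the main fit. All genes were not counted by direction there, so the shares of higher and of lower receptors have no like background in these fits. The odor pools all lay above the vehicle pools for 12 receptors, or 1.1% of them, where 1.13% of all genes did so. They all lay below for 3 receptors, or 0.275% against 0.892% of all genes. The first of these shares is near the background. From a level of 7 upward it was 1.32% of receptors and 0.89% of other genes, and the share below was 0.221% and 0.783%. The positive median also rested on some of the pools. Medians of the enrichment over all receptors were 0.41 to 0.54 in odor pools and 0.23 to 0.57 in vehicle pools, which overlapped. Without the pools numbered 3 of both arms, those with low Y-linked levels, the median difference was -0.03. At an unadjusted p under 0.05, 41 receptors were then higher and 25 lower, with 961 of all genes in either direction. Whether the sex of the mice had a part in this was not tested.

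**Figure D1:**
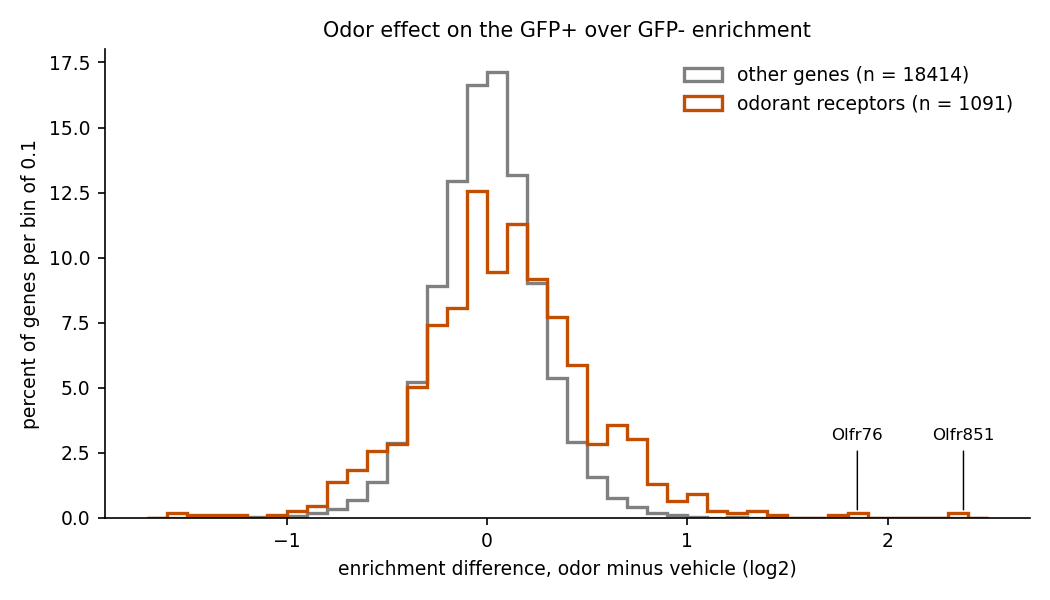
Share of genes (percent per bin of 0.1) by enrichment difference, odor minus vehicle, in log2 units, for 1091 odorant receptors and 18414 other genes. Receptors have the broader distribution, and Olfr76 at 1.85 and Olfr851 at 2.38 lie in its sparse upper tail.

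Olfr76 had the smallest spread for its size. Its enrichment was 3.20, 2.64, 3.21 and 3.38 in odor pools 1 to 4 and 1.59, 1.07, 1.34 and 1.02 in vehicle pools 1 to 4. Each odor pool thus lay more than 1 log2 unit above the highest vehicle pool. The difference was 1.85 ± 0.22 (SE, 4 pools against 4, 95% interval 1.36 to 2.34), a 3.60-fold larger ratio of GFP+ to GFP- level, with an adjusted p of 0.0860 in limma. An exact permutation test of the 8 pools gave a two-sided p of 0.0286, the smallest that 4 against 4 allow, which every gene without overlap reaches. The result moved across the threshold with the variance model. With the pool number as a replicate block, the adjusted p in limma was 0.226. The adjusted p was 0.00966 with the pool as a random block and 0.0300 with pools not entered as a block, and 1.00 with ordinary variances or with a prior of its own for receptors.

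The separation of Olfr76 lay in GFP- cells. In GFP- samples its log2 level was 7.34, 7.97, 7.51 and 7.48 after odor and 9.39, 9.49, 9.24 and 9.99 after vehicle. The groups did not overlap, and every odor sample was over 1 log2 unit lower. In GFP+ samples its level was 10.53, 10.61, 10.72 and 10.86 after odor and 10.99, 10.56, 10.58 and 11.02 after vehicle. These ranges overlapped in part, with odor pool 1 the lowest of all and vehicle pools 1 and 4 the highest. Odor minus vehicle was therefore -1.95 ± 0.21 in GFP- cells and -0.10 ± 0.15 in GFP+ cells. In GFP- cells Olfr76 fell by 1.95 on the log2 scale (adjusted p = 0.0292 in limma) and was the only gene called there of 19505 (0.00513% of all genes and 0.0917% of receptors). This call ended when any 1 pool other than odor pool 2 was left out (adjusted p between 0.0642 and 0.216) and with ordinary variances (0.602). In a sorted bulk sample, fewer cells with a receptor and less of its RNA per cell cannot be told apart.

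Olfr851 had the largest difference of any gene. Its enrichment was 3.98, 3.13, 5.31 and 4.05 in odor pools 1 to 4 and 1.82, 2.23, 1.51 and 1.39 in vehicle pools. Odor pools were all higher, and odor pool 3, whose GFP- sample stood apart, was the highest of them. The difference was 2.38 ± 0.39 (95% interval 1.51 to 3.25), a 5.20-fold larger ratio, and was 1.98 without odor pool 3. Levels of Olfr851 varied widely between pools of 1 arm. In GFP- cells they were 7.68, 9.60, 7.18 and 9.14 after odor and 8.30, 10.52, 10.10 and 10.88 after vehicle. In GFP+ cells they were 11.66, 12.73, 12.50 and 13.19 after odor and 10.13, 12.75, 11.61 and 12.27 after vehicle. The groups overlapped within each fraction, and only the within-pool differences separated. Odor minus vehicle was -1.55 ± 0.62 in GFP- cells and 0.83 ± 0.50 in GFP+ cells.

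**Figure D2:**
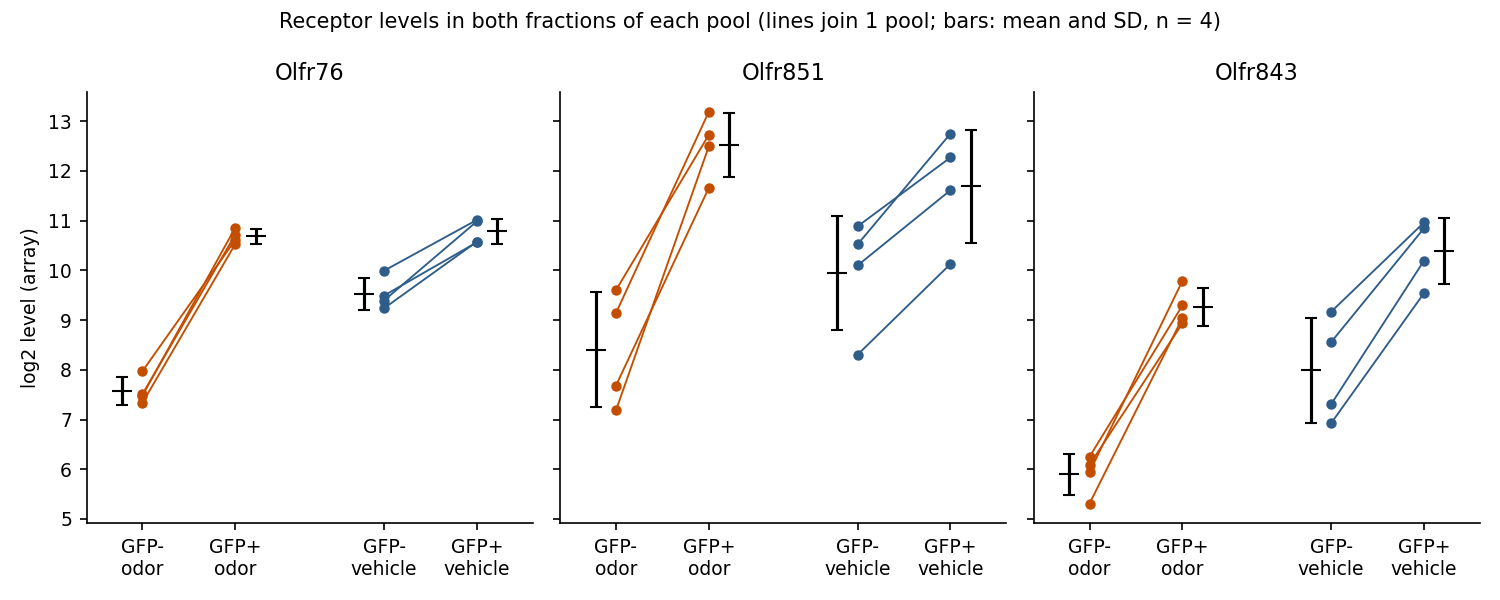
Log2 array levels of Olfr76, Olfr851 and Olfr843 in GFP- and GFP+ samples of 4 odor and 4 vehicle pools, with lines joining both fractions of 1 pool and bars giving the mean and SD (n = 4). For Olfr76 the GFP- samples of odor pools (7.34 to 7.97) lie under those of vehicle pools (9.24 to 9.99), while GFP+ samples overlap.

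Further receptors with odor pools all above vehicle pools were enriched in GFP+ cells of both arms. Olfr58 had enrichments of 2.35, 3.02, 3.42 and 2.99 in odor pools and 0.27, 1.79, 1.04 and 1.47 in vehicle pools, a difference of 1.80 ± 0.33. Its mean GFP- level after odor, 5.53, was under background, so the size of this difference may be limited by it. Olfr1099 had enrichments of 5.62, 5.57, 5.18 and 5.52 in odor pools and 4.21, 4.72, 3.27 and 4.18 in vehicle pools, a difference of 1.38 ± 0.28. Olfr1099 resembled Olfr76 in that its GFP+ means were close (13.08 ± 0.93 and 13.01 ± 0.61, SD) while GFP- means were 7.61 ± 0.76 after odor and 8.92 ± 0.33 after vehicle.

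Olfr616 had enrichments of 2.66, 2.23, 2.47 and 2.20 after odor and 0.88, 1.67, 1.46 and 0.84 after vehicle, a difference of 1.17 ± 0.24. Olfr466 had 3.63, 3.17, 3.04 and 3.28 against 2.69, 2.46, 2.32 and 1.48, a difference of 1.04 ± 0.27. In Olfr181 the odor pools lay at 2.65, 1.05, 1.25 and 1.42 and the vehicle pools at 0.85, 0.45, -0.30 and 0.38, a difference of 1.25 ± 0.36. Odor pool 1 stood highest there, and the nearest pools of the arms were separated by little.

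A larger enrichment after odor was not bound to receptors that were enriched in GFP+ cells. Of the 12 receptors, 9 were enriched on average in vehicle pools and the other 3 were lower in GFP+ than in GFP- cells of both arms. Olfr417 had enrichments of -3.19, -3.24, -3.70 and -2.71 after odor and -3.81, -4.70, -4.67 and -4.38 after vehicle, a difference of 1.18 ± 0.27. The remaining 4 of the 12 fell outside the rule for named genes and were chosen after their values were seen. Olfr1097 had a difference of 1.02 ± 0.23, with enrichments of -0.50 to 0.19 and -1.47 to -0.70. Olfr157, one of the OR37 receptors, had one of 0.75 ± 0.25, with GFP+ means of 5.68 and 5.07 that were under background. Olfr1286 had 0.48 ± 0.19 and Olfr48 had 0.37 ± 0.20, whose unadjusted p was 0.0899 although its pools did not overlap.

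In the opposite direction, Olfr1049 was enriched less after odor, with 1.55, 2.56, 1.39 and 1.66 against 2.83, 2.84, 2.67 and 3.19 after vehicle. The difference was -1.09 ± 0.27, and the vehicle GFP- mean, 5.14, was under background. Olfr446, an abundant receptor on these arrays in both fractions, had enrichments of 0.40 to 0.65 and 0.75 to 0.90 and a difference of -0.29 ± 0.17 (unadjusted p = 0.117). Olfr282, chosen after its values were seen, had a difference of -1.23 ± 0.22, but its means in all 4 groups (3.98 to 5.31) were under background.

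**Figure D3:**
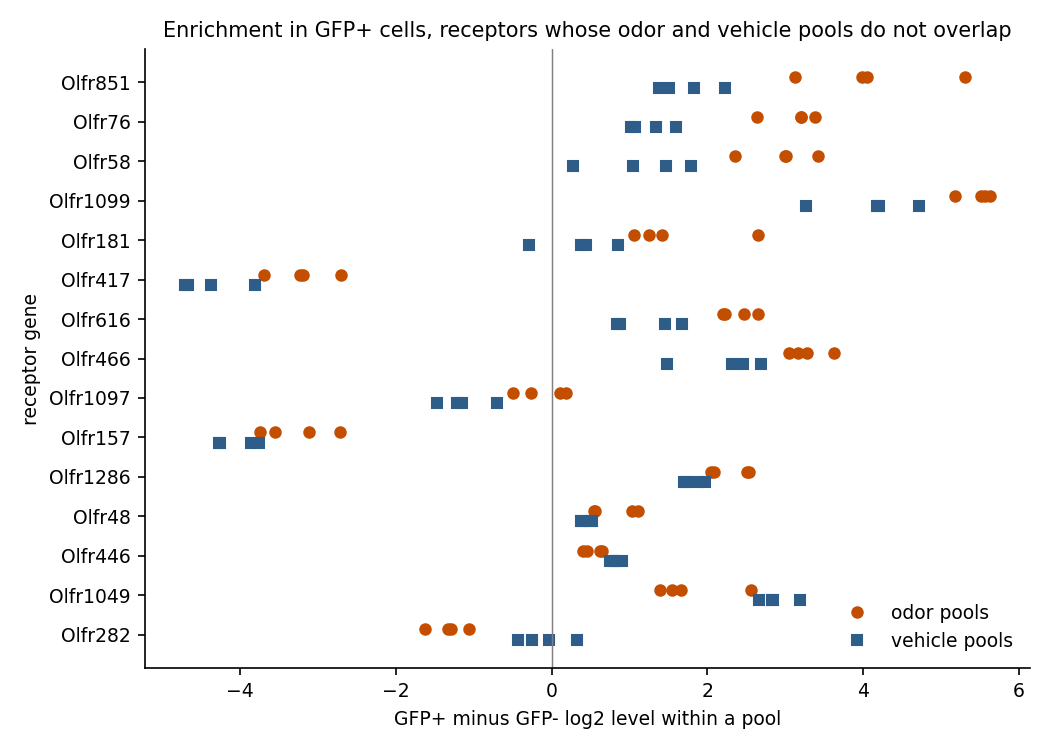
GFP+ minus GFP- log2 level in each of 4 odor pools and 4 vehicle pools for the 15 receptors whose pools did not overlap between arms. Odor pools lie above vehicle pools for 12 receptors and below for 3, and the gap is wide for Olfr76 and narrow for Olfr48, Olfr1286 and Olfr157.

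The enrichment difference is the odor effect in GFP+ cells minus that in GFP- cells, and both parts were read for these receptors as a description. The receptors were chosen by this difference, so the signs of its parts are in large part set by the choice. In GFP- cells the mean after odor was lower for 12 of the 12 receptors with higher odor pools, and in GFP+ cells it was higher for 11 of the 12, Olfr76 being the exception. The GFP- part was the larger for 9 of the 12. It was the smaller for Olfr58 (-0.79 ± 0.43 in GFP- and 1.01 ± 0.43 in GFP+ cells), Olfr181 (-0.54 ± 0.25 and 0.71 ± 0.28) and Olfr157 (-0.14 ± 0.16 and 0.61 ± 0.19). For all 3 receptors with lower odor pools the GFP- part was the larger. Over all receptors the median odor effect was -0.01 in GFP- and 0.06 in GFP+ cells. At an unadjusted p under 0.05 in GFP- cells, 1.74% of receptors were higher and 2.2% lower, against 2.05% and 1.53% of all genes. In GFP+ cells 4.86% of receptors were higher and 2.2% lower, against 2.9% and 2.59% of all genes. By the adjusted p 0 of 19505 genes were called in GFP+ cells by limma (0%), and 0 with ordinary variances, with 1070 and 1037 at an unadjusted p under 0.05.

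**Figure D4:**
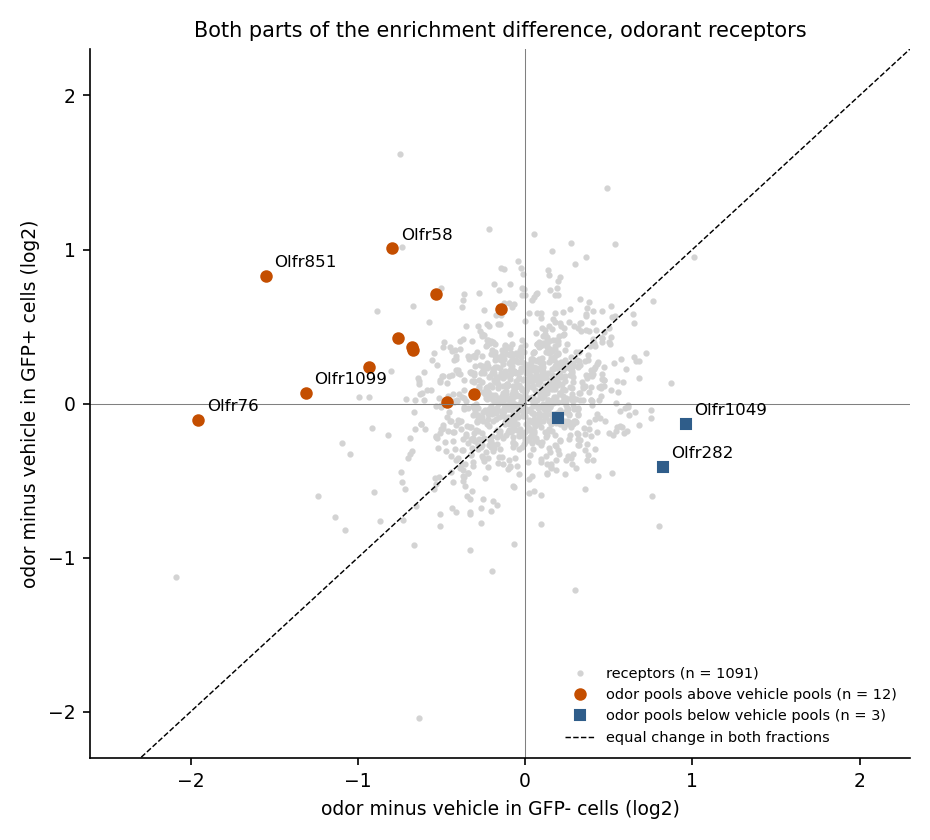
Odor minus vehicle in GFP- cells (x axis) and in GFP+ cells (y axis), in log2 units, for 1091 receptors, with the 12 and 3 receptors without overlap marked. Points on the dashed line would have the same effect in both fractions. Olfr76 lies at -1.95 in GFP- and -0.10 in GFP+ cells, and Olfr851 at -1.55 and 0.83.

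Related receptors were looked at by the MOR family names that RefSeq lists as synonyms, a choice made after the values were seen. Olfr851 shares its family with 1 other measured receptor, Olfr843, whose difference was 0.97 ± 0.30. Enrichments of Olfr843 were 2.84, 3.73, 3.04 and 3.85 in odor pools and 1.80, 2.29, 2.62 and 2.89 in vehicle pools, which overlapped at odor pool 1 and vehicle pool 4. In GFP- cells Olfr843 lay at 6.09, 5.31, 6.25 and 5.94 after odor and at 9.17, 8.56, 6.92 and 7.31 after vehicle. Odor pools 2 and 4 lay there under the background medians of their arrays (5.66 and 5.99), so the size of its differences may be limited. In GFP+ cells Olfr843 lay at 8.93, 9.04, 9.29 and 9.79 after odor and at 10.96, 10.85, 9.54 and 10.19 after vehicle. Unlike Olfr851 in GFP+ cells, its mean after odor was the lower in both fractions, by -2.09 ± 0.44 and -1.12 ± 0.30, and odor samples overlapped vehicle samples in GFP+ cells only. Olfr1097 and Olfr1099 belong to 1 family, whose other members Olfr1098 and Olfr1100 had differences of 0.46 ± 0.25 and 0.32 ± 0.34. The 2 other family members of Olfr76, Olfr1440 and Olfr1441, had differences of -0.06 and 0.12 at their ends, with a median of 0.03. Cross-hybridisation between related receptors was not tested, since probe sequences were not used here.

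Receptors next to the same locus did not all resemble it. The 3 measured receptor genes on either side of Olfr76 in the RefSeq order had differences of 0.01 to 0.87, the largest that of the adjacent Olfr1428 (0.87 ± 0.45). Those around Olfr851 had differences of -0.52 (Olfr854, whose GFP- means were under background) to 1.02 (Olfr855), and the adjacent Olfr850 (0.81 ± 0.38) was under background in all 4 groups. Olfr855 overlapped widely between arms, with enrichments of 0.85, 0.57, 2.04 and -0.29 after odor and 0.88, -0.52, 0.05 and -1.34 after vehicle. Unadjusted p-values of these 12 neighbours were 0.0600 to 0.987.

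Olfr1090, chosen after its values were seen, had a difference of 2.37 ± 0.59, the size of that of Olfr851, with pools that overlapped. Its enrichment was 2.69, 2.04, 0.06 and 2.38 in odor pools and -0.02, 0.53, -1.62 and -1.21 in vehicle pools. Odor pool 3 lay below vehicle pool 2 alone, and within both arms the pool numbered 3 was the lowest. In GFP+ cells it lay at 10.25, 10.19, 8.51 and 10.18 after odor and at 8.13, 9.20, 7.50 and 7.83 after vehicle, so that here the GFP+ part (1.62 ± 0.43) exceeded the GFP- part (-0.75 ± 0.26).

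Among the 18414 other genes, the odor pools lay above the vehicle pools for 208 (1.13%) and below for 171 (0.929%), and by the adjusted p 0 were called (0%). The 8 highest of those at a level of at least 7 had differences of 0.62 to 0.88, and the 8 lowest of -0.68 to -1.11. Tgfbi, a secreted matrix protein made by macrophages and stromal cells, had enrichments of -4.68, -4.49, -4.73 and -4.65 after odor and -5.16, -5.99, -5.34 and -5.58 after vehicle, a difference of 0.88 ± 0.21. Its GFP+ means were under background. Hip1r, an adaptor of clathrin coats and actin, followed at 0.73 ± 0.22, then the ubiquitin ligase Ubr1 (0.67 ± 0.20), the centrosomal Cep41 (0.66 ± 0.25), the tRNA methyltransferase Trmt10a (0.64 ± 0.22), the G protein regulator Rgs10 (0.63 ± 0.24), the deubiquitinase Usp40 (0.63 ± 0.20) and Uhrf1, which maintains DNA methylation (0.62 ± 0.21).

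At the lower end of the other genes was the interferon-induced Samd9l, with enrichments of -5.49, -5.84, -4.69 and -4.62 after odor and -4.20, -4.18, -3.45 and -4.36 after vehicle, a difference of -1.11 ± 0.31. Mss51, known from skeletal muscle mitochondria, had -0.99, -1.07, -1.34 and -0.92 against 0.06, -0.48, 0.35 and -0.06, a difference of -1.05 ± 0.22. The focal adhesion protein gene Zyx had a difference of -0.92 ± 0.23, followed by Rmdn1 (-0.86 ± 0.24), Cep112 (-0.70 ± 0.23), Bin2 of leukocytes (-0.70 ± 0.20), Fbxo46 (-0.69 ± 0.21) and Znhit6 (-0.68 ± 0.19). GFP+ means of Samd9l, Zyx and Bin2 were under background, so their differences rest on levels near the floor in 1 fraction.

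Genes of the active sensory neuron were read as a list of 7. S100a5 itself had enrichments of 1.19, 0.92, 1.86 and 1.26 after odor and 1.00, 1.21, 1.68 and 1.18 after vehicle. The arms overlapped fully in enrichment, with a difference of 0.04 ± 0.24 (95% interval -0.50 to 0.57) whose sign turned when the pools numbered 3 were left out. The median of the list was 0.03, against 0.00 for other genes, with 0 of 7 called, 1 higher at an unadjusted p under 0.05 (1.84% of all genes) and 0 lower. The 1 was Plcxd3, a phospholipase C-like gene, with enrichments of 1.48, 0.92, 1.24 and 1.19 against 0.88, 0.47, 0.32 and 0.79 and a difference of 0.59 ± 0.21. Kirrel2, an adhesion molecule of axon sorting, had -0.38 ± 0.24 (95% interval -0.91 to 0.16) and Lrrc3b, the lowest of the list, -0.39 ± 0.28.

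The average log2 level of the list was 12.94 to 13.47 after odor and 12.50 to 12.76 after vehicle in GFP+ samples, which did not overlap, and 11.03 to 12.18 and 10.78 to 11.52 in GFP- samples, which did. Mature neuron markers, at 15.58 to 15.60 after odor and 15.55 to 15.58 after vehicle in GFP+ samples, and dividing cell markers, at 6.09 to 6.26 and 5.92 to 6.07, were also higher there, the former by ranges that touch at this rounding, and whether they had a part in this was not tested. In GFP- cells 3 of the 7 listed genes were higher after odor and 0 lower at an unadjusted p under 0.05 (2.05% and 1.53% of all genes). Pcdh10, a protocadherin chosen after its values were seen, lay at 11.78, 11.13, 10.92 and 11.29 after odor and at 10.05, 9.64, 9.83 and 10.23 after vehicle in GFP+ cells. Odor minus vehicle was 1.34 ± 0.20 in GFP+ cells (adjusted p = 0.728 in limma) and 0.94 ± 0.30 in GFP- cells, which left an enrichment difference of 0.40 ± 0.27. Kirrel2 had odor effects of 0.60 ± 0.19 and 0.98 ± 0.34 in GFP+ and GFP- cells, and Lrrc3b of 0.78 ± 0.26 and 1.17 ± 0.37. Those of S100a5 were 0.22 ± 0.12 (adjusted p = 0.927 in limma) and 0.18 ± 0.24. Levels of S100a5 in GFP+ samples were 16.17 to 16.50 after odor and 16.04 to 16.12 after vehicle, which did not overlap. In GFP- samples they overlapped.

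Genes of signal transduction showed small differences. Of 17 measured transduction and adaptation genes, 0 met an unadjusted p under 0.05 (1.84% of all genes higher, 1.52% lower) and 0 had pools without overlap (1.13% above, 0.892% below). At these shares a count of 0 among 17 is near the background. Their median was -0.04, from -0.20 for the phosphodiesterase Pde4a to 0.18 for the sodium-calcium exchanger Slc8a1. The enrichment difference of Omp was -0.03 ± 0.18 (95% interval -0.42 to 0.36), positive with median centring, and the 19 mature neuron markers had a median of -0.03. Of the 14 measured genes of receptor trafficking and choice, with a median of -0.09, 1 had odor pools below vehicle pools (0.892% of all genes), the cofactor gene Ldb1 (-0.29, unadjusted p = 0.126), and the ends were the homeobox gene Emx2 at -0.30 and the nuclear lamina protein gene Lbr at 0.10. Axon-sorting genes, 14 measured, had a median of -0.07, from Epha5 at -0.33 to Sema7a at 0.19.

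Immediate early genes, which are transcribed within minutes of stimulation, had a median of -0.01 over 24 genes, with 1 higher and 0 lower at an unadjusted p under 0.05 (1.84% and 1.52% of all genes). Odor pools were all above vehicle pools for 1 of the 24 and all below for 1 (1.13% and 0.892% of all genes). The 1 was Arc, of synaptic plasticity, at 0.45 ± 0.19 and with no group mean above 4.73. The largest difference was that of the nuclear receptor Nr4a1 at 0.87 ± 0.41, with enrichments of -2.75, -3.02, -1.24 and -2.62 after odor and -3.92, -3.60, -2.46 and -3.11 after vehicle, and the lowest that of Nr4a2 at -0.67, whose GFP+ mean after odor was under background. Of 14 trace amine-associated receptors, a second family of chemosensory receptors, 1 was higher, Taar8c (1.06 ± 0.35), and 0 lower (1.84% and 1.52% of all genes), with a median of 0.03 and ends at Taar8b (1.20 ± 0.57, under background in 3 of 4 groups) and Taar3 (-0.77). Arc and Taar8c were named after their values were seen, as was Ldb1. Xenobiotic enzymes and their regulators had a median of 0.13 over 28 genes, with 0 higher and 1 lower, where 1.84% and 1.52% of all genes were, so a count of 1 is near the background. That 1 was Ahrr, the repressor of the aryl hydrocarbon receptor, with enrichments of -0.27, -0.21, -0.91 and -0.28 after odor and 1.08, 0.16, 0.65 and 0.30 after vehicle. Its difference was -0.96 ± 0.25, and its means in all 4 groups were under background.

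Markers of other cells that the GFP- gate holds were compared as lists, since a shift in them changes the fraction against which enrichment is taken. Median differences of the lists were between -0.36 (lymphocytes, 9 genes) and 0.22 (macrophages, 11 genes). Neutrophil markers, 13 measured, had a median of 0.04, and their average GFP- level was 12.52 to 13.80 after odor and 12.24 to 14.12 after vehicle. Macrophage markers averaged 7.37 to 7.72 in GFP- cells after odor and 7.68 to 8.02 after vehicle, with 2 of 11 lower and 0 higher there at an unadjusted p under 0.05 (1.53% and 2.05% of all genes). Of the 11, C1qb, a complement component, had the highest difference at 0.86 and the fractalkine receptor Cx3cr1, under background in GFP+ cells, the lowest at -0.48. Immature sensory neuron markers, with a median of -0.10 over 16 genes, averaged 11.72 to 11.93 in GFP- cells after odor and 11.51 to 12.06 after vehicle. Whether macrophage content had a part in the differences of Tgfbi or of receptors was not tested.

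Over the other marker lists the odor and vehicle pools overlapped in GFP- levels. Sustentacular cell markers averaged 8.62 to 8.70 after odor and 8.58 to 9.38 after vehicle, with a median difference of 0.09 over 14 genes and Hes1 (0.44) and Slco1a5 (-0.69) at the ends, both under background in all 4 groups. Globose basal and dividing cells had a median of 0.13 over 11 genes, with the survivin gene Birc5 at 0.63 but under background in all 4 groups, and microvillar and brush cells -0.05 over 14 genes, with Alox5ap at 0.66. Medians were 0.04 for 5 erythroid genes, 0.10 for 10 of horizontal basal cells, 0.05 for 12 of ciliated cells, -0.02 for 8 of ensheathing glia and 0.01 for 11 of endothelium and stroma. In the last 2 of these, 6 of 8 and 9 of 11 genes were under background in every group. Dissociation stress genes had a median of 0.00 over 11 genes, from Hspb1 at -0.32, under background in all 4 groups, to Hspe1 at 0.40. No listed gene was called by the adjusted p, with 0% of all genes called.

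**Figure D5:**
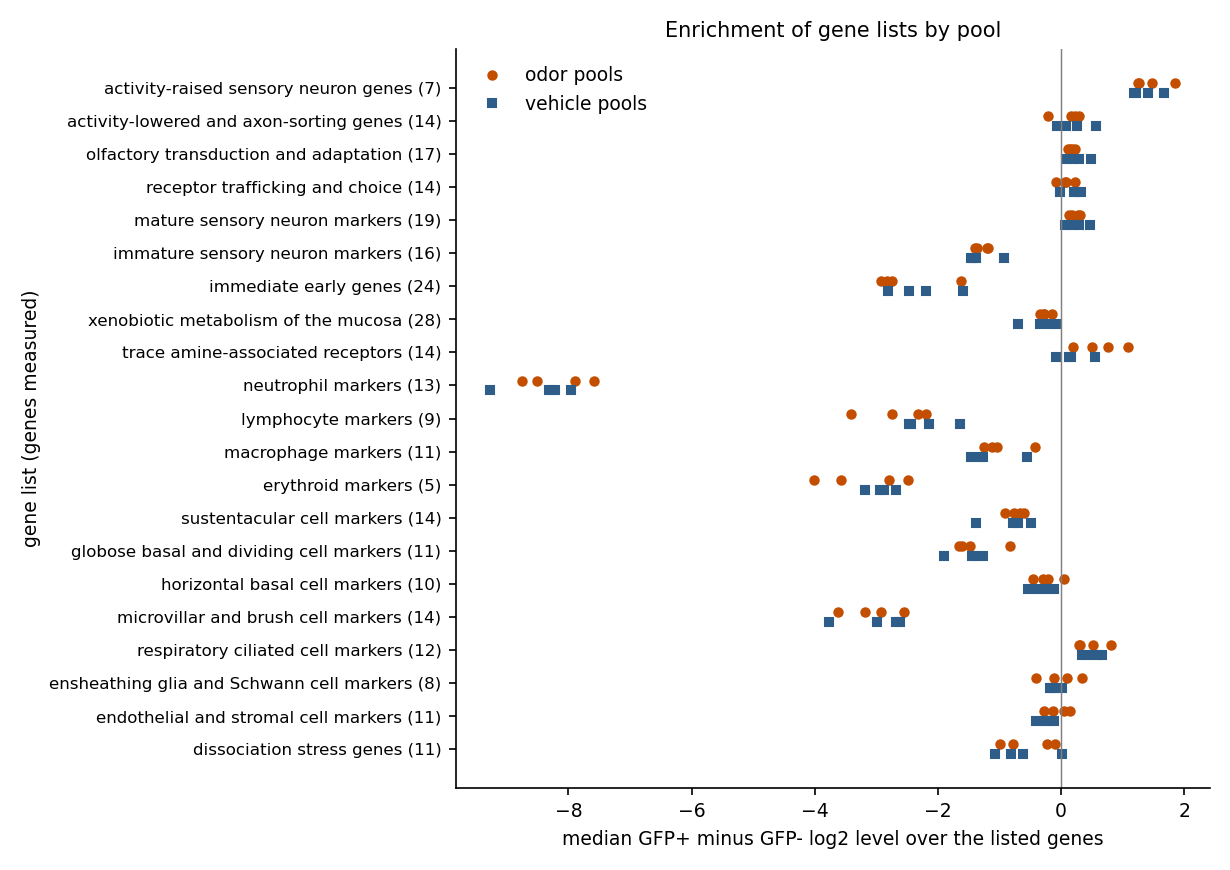
Median GFP+ minus GFP- log2 level of 21 gene lists in each of 4 odor and 4 vehicle pools, with the number of genes measured beside each name. Lists differ in enrichment, from 1.18 to 1.86 for the activity-raised genes to -9.27 to -7.58 for neutrophil markers, while odor and vehicle pools of a list overlap.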

How the data were processed

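The deposited series matrix holds 28846 probes on 16 arrays. Per the labels, the authors made it with Affymetrix Expression Console, and the deposited values were taken as log2, inferred from their range; for log base, background correction, normalization and genome build no statement was found in the labels or header used here. Symbols came from the platform annotation (19572 probes with 1 symbol, all matched to RefSeq GRCm38.p6, used for names and gene order). For 55 genes the probe with the highest mean stood for the gene. Pools were paired by the pool code in the titles; a repeated vehicle number 3 was numbered 4 by its code. Limma 3.58.1 in R 4.3.3 was fitted to the 8 within-pool differences, and to each fraction apart, and was tested on simulated data. P-values were two-sided and adjusted over 19505 genes; SEs share 1 moderated variance per gene. The number of arrays limits the precision. No pair of arrays was identical.

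Named genes were Olfr76 and Olfr851; the 8 highest and 8 lowest receptors, and other genes, without overlap at a mean level of at least 7 in some group; the ends of each of 22 lists; S100a5, Omp and Kirrel2; and 3 receptor genes on either side of both receptors. A planned choice by protein identity was not used here. The comparison, members and lists were chosen with earlier results of these data known. Odor and vehicle pools share numbers 1 to 4. Deviations of same-numbered GFP+ samples correlated at 0.114 to 0.242, and those of receptor enrichments at 0.189 to 0.352 (8 of 8 pools best with their own number). Both met the limit of 0.1 for every number, while enrichments over all genes (0.0974 to 0.305) and GFP- samples (0.0664 to 0.332) did not. The main fits held no replicate block, so their SEs and p-values leave this pairing of numbers out. Fits with the block are given as an alternative.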

Additional observations from a re-analysis of the deposited data

Results flagged for a closer look

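Enrichment values of the 95 named genes were checked in both arms, 190 groups of 4 pools, for 1 pool far from the other three; chance marks about 1 in 20 groups, and 7 were marked. In odor pools these were Zyx in pool 1 (-2.94, others -2.21 to -2.15), Ahrr in pool 3 (-0.91, others -0.28 to -0.21) and Eif2s3y in pool 3 (1.27, others -0.31 to -0.12). In vehicle pools they were Cep41 in pool 4 (-0.13, others 0.02 to 0.04), Cx3cr1 in pool 1 (-0.15, others -0.98 to -0.86), Omp in pool 2 (0.35, others -0.01 to 0.01) and Pcdh10 in pool 1 (2.14, others 1.18 to 1.28).

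In 3 genes every odor pool had an enrichment of one sign and every vehicle pool of the other. Ubr1 was positive after odor (difference 0.67), as was Usp40 (0.63), and Ahrr, under background in all groups, was negative (-0.96). By limma these differences had an adjusted p that rounds to 1.00.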

How the results depend on the processing

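No gene was called under 19 of 21 alternatives; with pools not entered as a block, or with the pool as a random block, 1 was, Olfr76 (difference 1.85, adjusted p = 0.0300 and 0.00966). Leaving out each pool gave 0 calls, differences of 1.76 to 2.00 for Olfr76 (adjusted p 0.0656 to 0.594) and 1.98 to 2.71 for Olfr851 (0.148 to 1.00). With the replicate block by pool number 0 were called and Olfr76 had an adjusted p of 0.226; 85 receptors were higher and 38 lower at an unadjusted p under 0.05 in place of 56 and 19, and 7 of 8 pools' enrichments correlated best with their own number. In GFP+ cells the block called 0 and in GFP- cells 1.

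Receptors at an unadjusted p under 0.05 numbered 30 higher and 8 lower with ordinary variances and 31 and 7 with a prior apart for receptors. They numbered 31 and 10 without the pool block and 36 and 16 with the random block. Of all 19505 genes, 687, 662, 501 and 692 met this rule in these fits, in either direction. With median centring 76 receptors were higher and 11 lower, with quantile normalization 61 and 12, and with the level filter 41 and 12. All genes that met the rule in either direction numbered 728 and 699, and 263 of 10229 with the level filter. Leaving out each pool gave 43 to 76 receptors higher and 13 to 30 lower, with 605 to 881 of all genes in either direction. Fewer pools make separation easier by construction. Receptors without overlap numbered 34 above and 23 below without the pools numbered 3, and 21 to 40 and 8 to 19 without 1 pool. The share of all genes without overlap was not taken under these settings, so these counts are not read against a background. In GFP- cells 0 to 1 genes were called without 1 pool. The median over all genes was 0.01, and 0.08 after median centring.

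A turn of sign was scored for 36 of the named genes. For the other named genes only the size of the shift was scored, so turns of sign among them were not counted. Among the 36, signs turned only for values near 0: Omp with median centring (0.041), quantile normalization (0.0066) and without 1 pool (-0.064 without vehicle pool 3 to 0.057 without vehicle pool 2), and S100a5 with array weights (-0.054), without the pools numbered 3 (-0.0091) and without 1 pool (-0.15 without odor pool 3 to 0.18 without vehicle pool 3, and -0.051 without vehicle pool 1). Array signal under background limits the size of differences for the genes named so above. These alternatives, for counts of receptors, lists and genes other than Olfr76 and Olfr851, were chosen after seeing the data.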

Other observations

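Of the transcript probes, 2615 had no gene symbol in the annotation used here. A fit of their enrichment differences called 0 by limma (78 at an unadjusted p under 0.05). The probe with the lowest p, TC1700001227.mm.2, had a difference of -7.81 ± 1.21 (adjusted p = 0.134 over these probes). Its GFP+ level ran from 2.96 to 7.82 after odor and from 7.20 to 13.15 after vehicle, and its GFP- level from 4.27 to 9.63 and from 4.18 to 5.59. All its vehicle GFP- levels and some of its odor levels lay under the background medians of the arrays, so the size of this difference rests on values near the floor.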
